A study of Mus musculus with 25 samples.

Results

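Syndecans and glypicans are the cell-surface proteoglycans that carry heparan sulfate chains, and 8 of their genes were followed here among the 25006 entries of the deposited table: the syndecans Sdc1, Sdc2, Sdc3 and Sdc4 and the glypicans Gpc1, Gpc3, Gpc4 and Gpc6. They were picked by gene symbol, with Sdc2 standing 11th of 12262 genes by the p-value of the comparison described below. Since the genes were chosen with values of this comparison in view, their levels and differences are given as a description, with no p-value. The family's other glypicans, Gpc2 and Gpc5, were counted with the other heparan sulfate proteoglycans.

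RNA was sequenced from E0771 tumours (a mouse mammary carcinoma line) of C57BL/6 mice, and the labels call the material CD8+ T cells enriched from the tumour. The treated group, with 3 libraries, had received an antibody against CD73 every 3 days, and the control group also had 3 libraries and is labelled only as control. CD73, the product of Nt5e, is a surface enzyme that makes extracellular adenosine from AMP. The labels give neither the age of the mice nor the number of animals behind a library, so p-values measure only the spread between these libraries, which may be technical. The other 19 samples of the series, CD8+ T cells from spleen that were cultured for 7 days, were not analysed here.

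Syndecans cross the membrane once and carry their chains near the outer end of the protein, while glypicans are held in the outer leaflet by a glycosylphosphatidylinositol (GPI) anchor. The chains are long sulfated sugars that bind growth factors, chemokines, lipoproteins and matrix proteins and present them to their receptors, so these proteoglycans act mostly as co-receptors. Syndecan ectodomains are cut off by metalloproteinases, and short cytoplasmic tails link the proteins to PDZ adaptors and to the actin cytoskeleton. In mammary tissue, syndecan-1 is the main syndecan of epithelia, and it also marks plasma cells. Syndecan-2 is best known from mesenchymal and endothelial cells, syndecan-3 from the nervous system, and syndecan-4 from focal adhesions of many cell types.

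The libraries held between 10180624 and 17161679 reads in genes. Levels are given as counts that the authors divided by a size factor per library (normalized counts), and a log2 difference is the mean of log2(normalized count + 1) in the anti-CD73 libraries minus that in the controls. Normalized counts are not per length, so levels of different genes are not compared. T cell transcripts were scarce: 14 T cell genes summed to between 229 and 853 normalized counts per library, against between 10545 and 29666 for 14 macrophage genes, and Cd8a lay between 7.60 and 122. Transcripts of other cell types were thus present in all libraries, and in such bulk samples fewer cells of a type and less RNA per cell cannot be told apart. Control replicate 1 stood apart from the other controls. The SD over genes of its log2 difference from their mean was 0.75, against 0.35 for the difference between the other controls. For members, each pathway list and the genes named from it, a second log2 difference was taken without this library. It is printed beside the first where they differ in sign or by over 1.5 times. Nt5e, whose product the antibody binds, lay between 55.7 and 92.4 normalized counts in the controls and between 58.2 and 100.4 after anti-CD73.

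The upstream sequences of Sdc1, Sdc3 and Sdc4 are shown because these syndecans were well above the low-count limit, include members that lay higher (Sdc1 and Sdc3) and lower (Sdc4) after anti-CD73, and have an entry in the RefSeq promoter table (GRCm38.p6). That table held 5 of the 8 members: Sdc1, Sdc3, Sdc4, Gpc3 and Gpc4. Each run is the 250 bases before the annotated start, 5′ to 3′ on the gene's strand. Capitals mark matches on either strand. The motifs searched were the GC box GGGCGG, the TATA box as TATAAG and as the variant TATAAA, the NF-kappaB site GGGAATTCC, the CCAAT box, the AP-1 site TGACTCA and the core of the interferon-stimulated response element. The motifs were chosen with these sequences in view.
Sdc1 (chr12:8771146-8771395, plus strand): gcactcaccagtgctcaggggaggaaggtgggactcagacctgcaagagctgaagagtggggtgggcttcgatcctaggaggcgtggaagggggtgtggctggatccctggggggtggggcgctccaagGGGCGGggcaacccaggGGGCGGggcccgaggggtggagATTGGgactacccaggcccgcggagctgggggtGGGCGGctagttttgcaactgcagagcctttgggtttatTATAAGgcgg
Sdc3 (chr4:130792287-130792536, plus strand): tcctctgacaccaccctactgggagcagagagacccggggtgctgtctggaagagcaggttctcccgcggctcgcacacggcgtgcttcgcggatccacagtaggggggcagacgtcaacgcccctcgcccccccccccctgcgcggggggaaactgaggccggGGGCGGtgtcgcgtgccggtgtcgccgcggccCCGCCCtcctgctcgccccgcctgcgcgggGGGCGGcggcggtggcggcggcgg
Sdc4 (chr2:164443189-164443438, minus strand): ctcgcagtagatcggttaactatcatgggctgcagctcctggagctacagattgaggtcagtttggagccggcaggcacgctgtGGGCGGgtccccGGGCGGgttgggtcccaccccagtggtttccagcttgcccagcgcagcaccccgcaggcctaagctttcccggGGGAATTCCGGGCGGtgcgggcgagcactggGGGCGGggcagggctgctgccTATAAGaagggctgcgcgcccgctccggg

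All 3 windows are rich in G and C, at 66% for Sdc1, 76.4% for Sdc3 and 68% for Sdc4, against a median of 52.4% over the 32851 windows of the same length in the table. The GC box occurred 3 times in Sdc1, 3 times in Sdc3 and 4 times in Sdc4, and 32.7% of all windows hold it. Sdc1 and Sdc4 each had 1 TATAAG, which 6.65% of all windows hold, starting 10 and 29 bases before the annotated start. In the Sdc3 window neither form of the TATA box was found. The Sdc4 window held GGGAATTCC, from 81 to 73 bases before the start and next to a GC box without overlapping it; 69 of the 32851 windows, or 0.21%, hold these letters. CCAAT was found once in Sdc1, on the opposite strand, and in 33.8% of all windows. No match to TGACTCA or to the interferon-stimulated element core was found in the 3 windows, and 4.46% and 2.98% of all windows hold them. These matches describe letters only, and no binding was measured here.

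Among the 5 members above the low-count limit of a mean of 10 normalized counts, Sdc2, Sdc4 and Gpc1 lay lower after anti-CD73, Sdc1 lay slightly higher, and Sdc3 was higher in the mean with overlapping groups. Over all 12262 genes tested, limma's test with Benjamini-Hochberg adjustment called 0 genes at an adjusted p of 0.05 (smallest 0.141), so 0 of the 5 members were called, beside 0% of all genes. At an unadjusted p under 0.05, limma had 1902 genes (15.5%). On the recovered reads, edgeR's quasi-likelihood test called 0 genes and DESeq2 592 (4.93%, or 2.92% higher and 2.01% lower), among them Sdc2 and Gpc1, both lower. Without control replicate 1, limma called Sdc2 and Gpc1 lower and Sdc3 higher, beside 10.3% of all genes lower and 11.9% higher; in edgeR, which called the same 3, these were 9.7% and 12.3%. Without both replicates numbered 1, limma again called these 3, beside 9.54% of all genes (5.51% higher and 4.03% lower). Nothing is read from these counts, since the members come from the same comparison. The groups did not overlap for 4 of the 5 members, beside 23.5% of all genes tested: Sdc1 was higher (11.5% of all genes) and Sdc2, Sdc4 and Gpc1 were lower (12%).

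**Figure D1:**
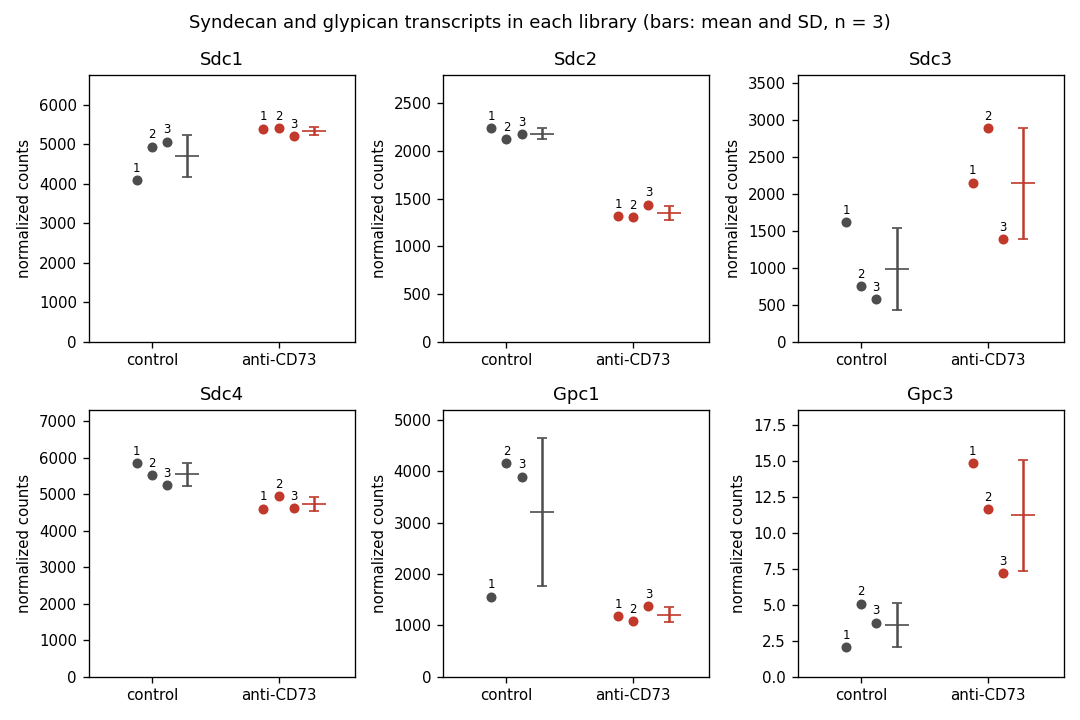
Normalized counts (vertical axis, from 0) of 6 members in each library, numbered by replicate, with the mean and SD of each group of 3 libraries beside the points. Sdc2 shows tight groups that do not overlap, whereas control replicate 1 lies at the anti-CD73 level for Sdc3 and close to it for Gpc1.

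Sdc2 (ENSMUSG00000022261; mm10 chromosome 15, 32920723 to 33034721) encodes syndecan-2. It stood at 2239, 2127 and 2176 normalized counts in control replicates 1, 2 and 3 and at 1316, 1304 and 1437 in anti-CD73 replicates 1, 2 and 3. All 3 anti-CD73 libraries lay below all 3 controls, and control replicate 1 lay with the other controls. The means were 2181 ± 56.0 and 1352 ± 73.2 (SD, n = 3), a log2 difference of -0.69 with a standard error of 0.10 (a fold of 0.62). The coefficient of variation within the groups was 2.57% and 5.42%, against medians of 15.7% and 5.98% over the 3232 tested genes with a mean between 1000 and 6000. A small p favours a low spread within groups, and Sdc2 was picked with its p in view, so this comparison is no further evidence. Without control replicate 1 the difference was -0.67 (SE 0.081).

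Fibroblast and endothelial marker genes, from cells in which syndecan-2 is known, had higher sums in the libraries where Sdc2 was lower. The 12 fibroblast genes summed to between 4346 and 5348 in the controls and between 5587 and 6503 after anti-CD73, and the 10 endothelial genes to between 3212 and 3778 and between 3891 and 4891. Of the tested genes, 7 of 10 fibroblast and 8 of 8 endothelial genes lay higher, with 0 of either list past limma's adjusted threshold. The other 3 fibroblast genes lay lower, down to a log2 difference of -0.66. Without control replicate 1, the medians went from 0.26 to 0.43 and from 0.56 to 0.83. In that fit limma called 2 of the 10 fibroblast and 5 of the 8 endothelial genes, all higher, beside 11.9% of all genes higher. Sdc2 as a percentage of the fibroblast sum was 46.0, 39.8 and 50.1 in the controls and 23.5, 20.1 and 23.8 after anti-CD73. As a percentage of the endothelial sum it was 59.3, 66.2 and 62.3 and then 28.9, 26.7 and 36.9. Sdc2 was chosen from this comparison and lay lower while both sums lay higher, each without overlap. The separation of these ratios thus follows from their parts and is no further evidence. The part of either cell type in the Sdc2 difference was not tested.

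Sdc4 (ENSMUSG00000017009; chromosome 2, 164424247 to 164443188), the syndecan of focal adhesions, had 5854, 5519 and 5245 normalized counts in the controls and 4604, 4947 and 4621 after anti-CD73. Every anti-CD73 library lay below every control, by a smaller proportion than for Sdc2. The means were 5539 ± 305 and 4724 ± 193 (SD, n = 3), a log2 difference of -0.23 (SE 0.10). Quantile normalization of the libraries reduced this to -0.13 (SE 0.098).

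Sdc1 (ENSMUSG00000020592; chromosome 12, 8771396 to 8793716), the epithelial and plasma cell syndecan, stood at 4100.2, 4948 and 5074 in the controls and 5399, 5413 and 5210.4 after anti-CD73. The anti-CD73 libraries lay just above the controls, and control replicate 1 was the lowest of the 6. The means were 4707 ± 529.5 and 5340.5 ± 113 (SD, n = 3), a log2 difference of 0.19 (SE 0.12), and without control replicate 1 it was 0.092 (SE 0.070). The 9 plasma cell genes summed to 1472, 457 and 394 in the controls and 1424, 1554 and 903 after anti-CD73. This sum was among the highest in control replicate 1, where Sdc1 was lowest. More than any other gene, Slamf7, which other leukocytes also carry, made up this sum. All 5 tested genes of the list lay higher after anti-CD73 (median log2 difference 0.67, or 1.07 without control replicate 1). The part of plasma cell RNA in the Sdc1 difference was not tested. Jchain, the immunoglobulin joining chain, lay between 0 and 9.30, and Tnfrsf17, the receptor BCMA, had counts in 1 library only, at 1.03. The epithelial list had low counts of its defining genes in all libraries (Epcam between 4.11 and 9.14, Cdh1 between 3.74 and 22.2), while Krt8 lay between 1856 and 4559.

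Sdc3 (ENSMUSG00000025743; chromosome 4, 130792537 to 130826318) encodes syndecan-3. It had 1612, 750.1 and 573 normalized counts in the controls and 2150, 2887 and 1386 after anti-CD73. Anti-CD73 replicate 3 lay below control replicate 1, so the groups overlapped, and Sdc3 had the widest spread of the 5 members, with coefficients of variation of 56.8% in the controls and 35.1% after anti-CD73. The means were 979 ± 556 and 2141 ± 751 (SD, n = 3), a log2 difference of 1.21 (SE 0.41), which became 1.64 (SE 0.26) without control replicate 1.

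The macrophage list ordered the libraries as Sdc3 did. Its 14 genes summed to 20351, 13197 and 10545 normalized counts in the controls and 24931, 29666 and 17739 after anti-CD73. All 14 genes lay higher after anti-CD73, with a median log2 difference of 0.70 and 0 past limma's adjusted threshold. Without control replicate 1 the median was 0.99 and limma called 10 of the 14, all higher, beside 11.9% of all genes higher. The most abundant by their mean were Cd14, Lyz2 and Itgam. Sdc3 as a percentage of the macrophage sum was 7.92, 5.68 and 5.44 in the controls and 8.62, 9.73 and 7.81 after anti-CD73, with control replicate 1 just above anti-CD73 replicate 3. The part of macrophage RNA in the Sdc3 difference was not tested.

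Gpc1 (ENSMUSG00000034220; chromosome 1, 92831645 to 92860211), a glypican raised in several carcinomas, had a difference close in size to that of Sdc3 and opposite in sign. It had 1556, 4163 and 3900 normalized counts in the controls and 1176, 1078 and 1372 after anti-CD73. Every anti-CD73 library lay below every control, but control replicate 1 was closer to the anti-CD73 libraries than to the other controls. The means were 3206 ± 1436 and 1209 ± 150 (SD, n = 3), a log2 difference of -1.29 (SE 0.36, a fold of 0.41). Without control replicate 1 the difference was -1.74 (SE 0.11), and without control replicate 2 it was -1.03.

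The 13 epithelial genes, with nearly all counts from Krt8, summed to 1969, 3679 and 4677 in the controls and 2522, 2157 and 2719 after anti-CD73. Like Gpc1, this sum was high in control replicates 2 and 3 and low elsewhere, although its lowest library was control replicate 1. The sum follows Krt8 (log2 difference -0.43, SE 0.31), and only 2 other genes of the list were tested: Krt18 had -0.29 (SE 0.42) and Krt19, at between 0 and 33.9 normalized counts, had 1.83 (SE 1.15). The ratio of Gpc1 to this sum was 79.0, 113 and 83.4% in the controls and 46.6, 49.98 and 50.5% after anti-CD73, without overlap. Gpc1 was chosen with this comparison in view and its own groups did not overlap, so this separation is no further evidence. The erythroid list was likewise highest in control replicates 2 and 3, at 55531 and 58722 normalized counts, against 7848 in control replicate 1 and between 8420 and 30986 after anti-CD73. The part of either in the Gpc1 difference was not tested.

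**Figure D2:**
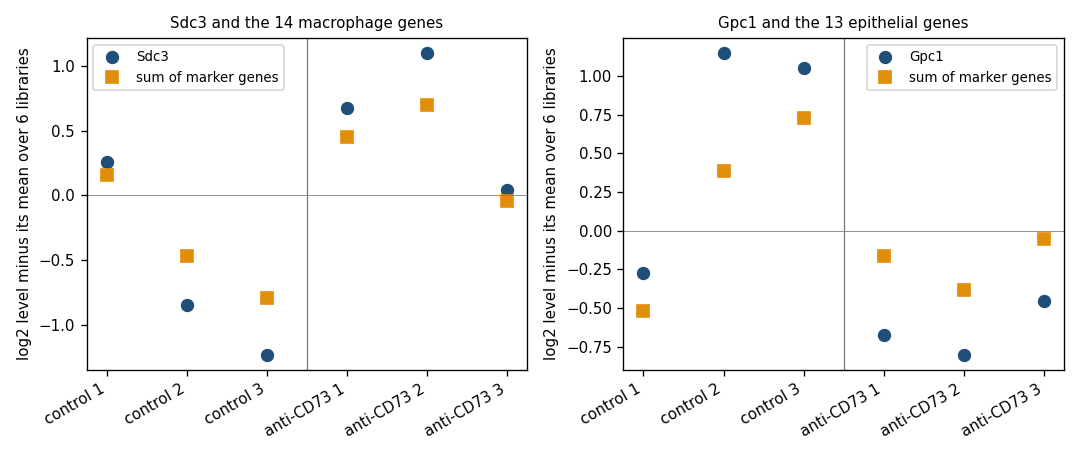
For each library (horizontal axis), the log2 level minus its mean over the 6 libraries (vertical axis) is plotted for Sdc3 beside the sum of 14 macrophage genes (left) and for Gpc1 beside the sum of 13 epithelial genes (right). Sdc3 and the macrophage sum order the libraries alike, with control replicate 1 above the other controls, while Gpc1 is lowest in the anti-CD73 libraries and the epithelial sum is lowest in control replicate 1.

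**Figure D3:**
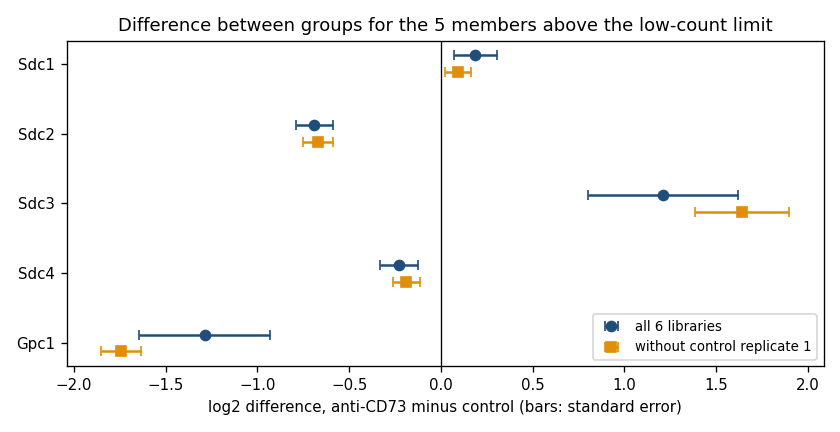
Log2 difference between anti-CD73 and control libraries (horizontal axis) with its standard error, from limma over all genes, for all 6 libraries and without control replicate 1. Sdc2 and Sdc4 keep nearly the same value, at -0.69 and -0.67 for Sdc2, while Sdc3 goes from 1.21 to 1.64 and Gpc1 from -1.29 to -1.74.

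Transcripts of the other 3 members were near the limit of detection. Gpc3 (ENSMUSG00000055653; chromosome X, 52272426 to 52613974), a glypican of embryonic tissue and of liver tumours, had 2, 4 and 5 reads in the controls and 16, 11 and 7 after anti-CD73, or 2.03, 5.07 and 3.74 against 14.9, 11.6 and 7.20 normalized counts. The anti-CD73 values lay above the controls. The 95% Poisson intervals, which cover counting error only, still overlapped between the 5 reads of control replicate 3 (1.62 to 11.7) and the 7 of anti-CD73 replicate 3 (2.81 to 14.4). Gpc4 (ENSMUSG00000031119), its neighbour on chromosome X (52051007 to 52164923), had between 1 and 5 reads in each library, with overlapping groups. Gpc6 (ENSMUSG00000058571; chromosome 14, 116924920 to 117979529) had 1 read in control replicate 1, 1 in anti-CD73 replicate 1 and 0 in the other 4 libraries, and a count of 0 allows up to 3.69 reads at the same level. No difference between groups was detectable for Gpc4 or Gpc6 at this depth. The family's other glypicans were as scarce, Gpc2 at between 0.748 and 2.79 normalized counts and Gpc5 at 0 in 5 libraries and 2.25 in the sixth, so that Gpc1 gave nearly all glypican reads.

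The summed level of the 4 syndecans differed little between the groups, while the shares within it differed. The sum was 13406 ± 373 normalized counts in the controls and 13558 ± 952 after anti-CD73 (SD, n = 3), with overlapping groups. Sdc2 took 16.2, 15.9 and 16.6% of it in the controls and 9.77, 8.96 and 11.4% after anti-CD73. Sdc4 took 42.4, 41.4 and 40.1% and then 34.2, 34.0 and 36.5%. Neither share overlapped between the groups. The levels of both genes were already apart, and each share also depends on the other syndecans, so this is no further evidence. Sdc3 took 11.7, 5.62 and 4.39% and then 16.0, 19.8 and 11.0%, with anti-CD73 replicate 3 below control replicate 1. For Sdc1 the shares were 29.7, 37.1 and 38.8% and then 40.1, 37.2 and 41.2%, and the groups overlapped.

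**Figure D4:**
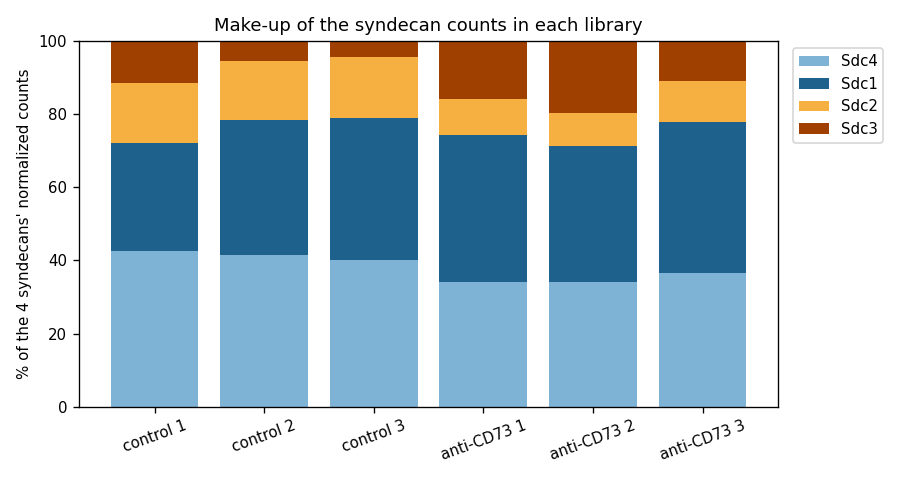
Share of the summed normalized counts of the 4 syndecans (vertical axis, 0 to 100%) taken by each of them in each library, not corrected for gene length. The Sdc2 segment is narrower in all 3 anti-CD73 libraries (8.96 to 11.4%) than in the controls (15.9 to 16.6%), and the Sdc3 segment is widest in anti-CD73 replicate 2 (19.8%).

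Ratios between members within a library do not depend on the scaling between libraries. The log2 ratio of Sdc2 to Sdc4 was -1.39, -1.38 and -1.27 in the controls and -1.81, -1.92 and -1.69 after anti-CD73, so Sdc2 was lower relative to Sdc4 in every anti-CD73 library than in any control. The log2 ratio of Sdc2 to Sdc1 was -0.87, -1.22 and -1.22 and then -2.04, -2.05 and -1.86. For Gpc1 to Sdc1 it was -1.40, -0.25 and -0.38 and then -2.20, -2.33 and -1.93. For Sdc3 to Sdc1 it was -1.35, -2.72 and -3.15 and then -1.33, -0.91 and -1.91, and the groups overlapped. The other 3 ratios did not overlap. For the ratios to Sdc1 this follows from levels that were themselves apart in opposite directions. The members were chosen with this comparison in view, so the separation of these 3 ratios is no further evidence.

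The genes whose profiles over the 6 libraries were most like a member's were found among 11861 tested genes by the root mean square difference of log2 levels centred on their means. For Sdc2 these were Adss (0.051), an adenylosuccinate synthetase, Cav1 (0.053), the main coat protein of caveolae, and Tiparp (0.054), a poly(ADP-ribose) polymerase induced by the aryl hydrocarbon receptor. Cav1 had 7953, 7479 and 7260.0 normalized counts in the controls and 4473, 4819 and 5262 after anti-CD73. The nearest profiles to Sdc4 were those of Vps29 (0.022), Tax1bp1 (0.026) and Smad2 (0.032), and those nearest to Sdc1 were Smarcd2 (0.024), Jup (0.026), which encodes plakoglobin of cell junctions, and Bap1 (0.031). Sdc3 was nearest to Nod1 (0.082), a bacterial sensor, Itgal (0.084), the leukocyte integrin alpha chain of LFA-1, and Lsr (0.092). Gpc1 had no profile as close, with Rgcc at 0.16, Wee1 at 0.17 and Crip1 at 0.17. Between members, the value was smallest for Sdc2 and Sdc4 (0.24) and largest for Sdc3 and Gpc1 (1.59). Sdc1 and Sdc4 came next to the smallest, at 0.25, although Sdc1 lay higher and Sdc4 lower after anti-CD73. A small value can thus reflect small changes in both genes and not a shared direction. The profiles also include the group difference in whose view the members were chosen, so likeness to a member is no further evidence.

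Genes that build, modify, cut or use heparan sulfate were then read from 9 lists holding 126 genes of the table, of which 100 passed the low-count limit. limma called 0 of the 100 at an adjusted p of 0.05. At an unadjusted p under 0.05 there were 17 (17%), beside 15.5% of all genes tested. The groups did not overlap for 20 of them (20%, beside 23.5% of all genes), of which 12 were higher and 8 lower. The median log2 difference of the 100 was 0.062 and that of all genes 0.0039. DESeq2 called 5 higher and 2 lower, beside 4.93% of all genes in either direction. Without control replicate 1, limma called 15 higher and 16 lower, beside 22.2% of all genes, and edgeR 16 higher and 14 lower, beside 22%.

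Chain synthesis starts with xylose added by xylosyltransferases and is extended by the exostosins. Of these 12 genes, 8 lay higher and 4 lower (median 0.015, or 0.083 without control replicate 1). Xylt1, a xylosyltransferase, had 294, 110 and 77.8 normalized counts in the controls and 438, 512 and 293 after anti-CD73 (log2 difference 1.56, SE 0.47, limma adjusted p = 0.2). Control replicate 1 lay at the level of anti-CD73 replicate 3, so the groups overlapped. Ext2, which with Ext1 forms the chain polymerase, had -0.25 (SE 0.17, adjusted p = 0.509), or -0.44 (SE 0.077) without control replicate 1. Extl1, with low counts, had 1.30 (SE 0.36, adjusted p = 0.181).

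The modification list holds the sulfotransferases, the epimerase and the enzymes and carriers of the sulfate donor PAPS. Of its 20 genes, 10 were tested, 4 lay higher and 6 lower (median -0.013, or -0.12 without control replicate 1). Papss2, a PAPS synthase, had 13.2, 5.07 and 10.5 normalized counts in the controls and 36.3, 41.3 and 34.96 after anti-CD73, a log2 difference of 1.95 (SE 0.39, limma adjusted p = 0.147). Its groups were well apart, at low counts. Slc35b3, a PAPS carrier of the Golgi, had -0.36 (SE 0.16, adjusted p = 0.328), and Hs2st1, the 2-O-sulfotransferase, had -0.18 (SE 0.11, adjusted p = 0.457).

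Among enzymes that edit or degrade the chains, 7 of 10 tested genes lay higher (median 0.083, or 0.13 without control replicate 1). Hpse, the heparanase that cleaves heparan sulfate outside cells, had 0.42 (SE 0.18, limma adjusted p = 0.328). Hgsnat, a lysosomal acetyltransferase of heparan sulfate breakdown, stood at 1042, 964 and 1066 in the controls and 835, 849 and 834 after anti-CD73 (log2 difference -0.29, SE 0.10, adjusted p = 0.261). The groups of Hgsnat did not overlap and those of Hpse did.

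The list on release from the cell surface was drawn up around enzymes that can cut syndecans or glypicans or activate such enzymes. It also holds the protease inhibitor Timp3, the receptor Plaur and Notum. Of its 9 tested genes 6 lay higher (median 0.25, or 0.17 without control replicate 1). Among them were Timp3 (1.00, SE 0.43, limma adjusted p = 0.322), which blocks shedding, and Plaur (0.097, SE 0.12, adjusted p = 0.74). Without control replicate 1 Plaur had 0.17 (SE 0.089). Mmp9, a gelatinase able to shed syndecans and abundant in neutrophils, had 257, 351 and 242 normalized counts in the controls and 554, 815 and 390 after anti-CD73 (log2 difference 1.00, SE 0.28, limma adjusted p = 0.183). The neutrophil list summed to between 5808 and 7962 in the controls and between 8580 and 15163 after anti-CD73, and its part in the Mmp9 difference was not tested. The sheddases Adam17 (-0.095, SE 0.14, adjusted p = 0.773) and Adam10 (-0.12, SE 0.20, adjusted p = 0.812) had differences below their standard errors, and without control replicate 1 both changed sign, to 0.032 (SE 0.077) and 0.063 (SE 0.14). Notum had 0 reads in all 6 libraries. Of the 8 genes for GPI anchor attachment and remodelling, 4 lay higher and 4 lower (median 0.043, or 0.10 without control replicate 1). Pigk, the catalytic subunit of the transamidase that attaches the anchor, stood at 684, 763 and 765 in the controls and 538, 552 and 560.4 after anti-CD73 (-0.42, SE 0.11, adjusted p = 0.178).

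Of the 15 cytoplasmic partners of syndecans, 5 lay higher and 10 lower (median -0.040, or -0.097 without control replicate 1). Sdcbp, the PDZ adaptor syntenin that binds all syndecan tails, had -0.024 (SE 0.23, limma adjusted p = 0.974), but 0.25 (SE 0.099) without control replicate 1, which at 6963 normalized counts was the highest library. Rhog, a small GTPase linked to syndecan-4 signalling, stood at 1234, 1188 and 1296 in the controls and 2021, 2147 and 1522 after anti-CD73 (0.60, SE 0.15, adjusted p = 0.169).

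Of the 18 tested ligands and receptors that bind heparan sulfate, 12 lay higher and 6 lower (median 0.28). Fn1, the matrix protein fibronectin, had the smallest p of the list and had 316, 334 and 266 normalized counts in the controls and 870.3, 1107 and 593 after anti-CD73 (log2 difference 1.45, SE 0.23, limma adjusted p = 0.141). Tnc, the matrix protein tenascin-C, had 0.95 (SE 0.37, adjusted p = 0.292), with control replicate 1 at the anti-CD73 level and 1.43 (SE 0.098) without it. Met, the receptor of hepatocyte growth factor, had -0.45 (SE 0.14, adjusted p = 0.206) and the chemokine gene Ccl5 -0.49 (SE 0.21, adjusted p = 0.327), or -0.73 (SE 0.097) without control replicate 1.

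Other proteoglycans that can carry heparan sulfate split into 4 higher and 3 lower of 7 tested (median 0.22, or -0.095 without control replicate 1). Nrp1, the co-receptor neuropilin-1, had 1.39 (SE 0.46, limma adjusted p = 0.227), and Srgn, the granule proteoglycan of blood cells, had 0.85 (SE 0.41, adjusted p = 0.368), or 1.33 (SE 0.20) without control replicate 1. In both, control replicate 1 lay above the other controls, as for Sdc3 and the macrophage list. Cd44, the hyaluronan receptor, stood at 27135 in control replicate 1 and between 14006 and 15893 in the other 5 libraries. Its log2 difference was -0.37 (SE 0.23, limma adjusted p = 0.475), or -0.095 (SE 0.078) without control replicate 1. Among the chondroitin enzymes, which build another chain on the same linker, also carried by syndecan-1, 7 of 11 lay higher (median 0.12, or -0.036 without control replicate 1). Csgalnact2, which starts chondroitin chains, had -0.63 (SE 0.14, adjusted p = 0.157) and the sulfotransferase gene Chst15 1.47 (SE 0.38, adjusted p = 0.178).

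**Figure D5:**
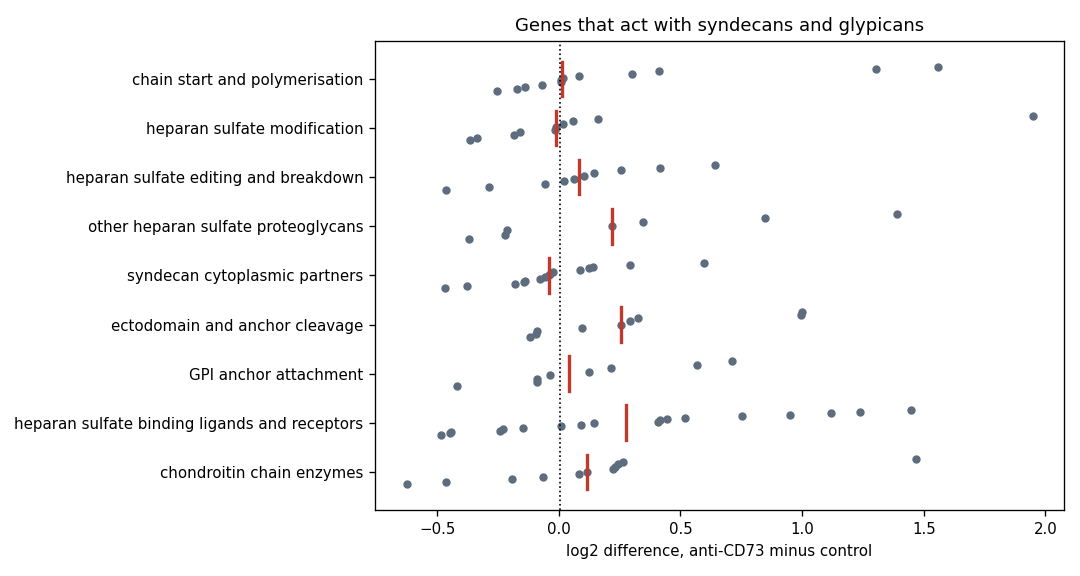
Log2 difference between anti-CD73 and control libraries (horizontal axis) for each tested gene of the 9 lists (points, sorted within a list), with the list's median as a red bar and the median of all 12262 tested genes as a dotted line. The medians lie between -0.040 and 0.28, and the points farthest to the right are Papss2 (1.95), Xylt1 (1.56), Chst15 (1.47) and Fn1 (1.45).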

How the data were processed

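RNA-seq values of 6 libraries from mouse tumour preparations were used, 3 per group, matched to the table's columns by the sample descriptions. Per the labels, the deposited signal is a normalized gene count, made by the authors with DESeq, which divides each library by its size factor. The submitters' processing notes list Bowtie 0.12.7 and the mm10 build and do not say what each was used for. Strand use, annotation and counting tool: not given in the sources used here, so reads of overlapping genes may be misassigned. Dividing by the value of 1 read gave whole reads for 100% of values, within 0.01 of an integer.

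In R 4.3.3, limma-trend (limma 3.58.1) was fitted two-sided to log2(normalized count + 1) for 12262 genes with a mean of at least 10 over the libraries, with Benjamini-Hochberg adjustment. edgeR 4.0.16 and DESeq2 1.42.0 were run on recovered reads as alternatives. Tested on simulated data for this comparison (12280 genes, 200 of them changed), the fit found 47.5% of changes of 2-fold and 90% of those of 4-fold, and 7.09% of its calls were false. The simulation drew each gene independently, so no simulated library stood apart across many genes as control replicate 1 did. These rates may therefore not hold for the real libraries. Members and gene lists were chosen with earlier results of these data known. Text names the members, from each list the 2 genes with the smallest p in each direction, from marker lists the 3 most abundant, and for each member the 3 most alike profiles, not all of which are printed; Sdcbp, Notum, Gpc2, Gpc5, Jchain, Tnfrsf17, Epcam, Cdh1 and Plaur were named after their values were seen. No replicate pair was identical within sampling noise: chi-square per gene was at least 5.76. Coordinates and sequences come from RefSeq tables of GRCm38.p6, the assembly of mm10. Protein sequences were not used here. Figures were drawn with matplotlib 3.10.9.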

Additional observations from a re-analysis of the deposited data

How the results depend on the processing

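All 5 tested members kept their direction under the 18 alternatives run. Values ranged from -0.73 to -0.64 for Sdc2, -0.27 to -0.13 for Sdc4 (-0.13 with quantile normalization), 0.084 to 0.29 for Sdc1, 0.90 to 1.71 for Sdc3 and -1.74 to -1.03 for Gpc1. The Sdc3 difference was larger in size than that of Gpc1 with quantile normalization (1.26 against -1.25), without control replicate 2 (1.09 against -1.03) and without anti-CD73 replicate 3 (1.49 against -1.38), and smaller in the other settings. With single libraries left out, Sdc3 was lowest without control replicate 3 (0.90) and highest without control replicate 1 (1.64), Gpc1 went from -1.74 with control replicate 1 left out to -1.03 with control replicate 2 left out, Sdc2 from -0.73 to -0.66, Sdc4 from -0.27 to -0.19 and Sdc1 from 0.092 to 0.25.

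Counts of calls over all genes, 0 with all libraries, moved to 592 with DESeq2 and, without control replicate 1, to 2724 (limma), 2703 (edgeR) and 2679 (DESeq2). Without both replicates numbered 1, limma called 1170. The edgeR and DESeq2 fits without that library, and the fit without both replicates numbered 1, were chosen after seeing the data. Leaving out any other single library kept the count at 0, a range of 0 to 2724. For the 100 genes of the heparan sulfate lists the count went from 0 to 7 with DESeq2, to 31 (limma), 30 (edgeR) and 32 (DESeq2) without control replicate 1, and to 13 without both replicates numbered 1, with a range of 0 to 31 when single libraries were left out. Of the 5 members, DESeq2 called Sdc2 and Gpc1, and without control replicate 1 all 3 tools called Sdc2, Sdc3 and Gpc1, beside 4.93% and between 21.8 and 22.2% of all genes. List medians moved beyond the spread between replicates in 26 values and by less in 136. The cause was not tested.

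With the replicate block by title number, limma called 0 genes, as without it. The numbers were not taken to pair libraries, and correlations of deviations did not settle this. They were 0.19, -0.096 and 0.26 for same-numbered libraries. Control replicates 1 and 3 were closest to their same-numbered library, and control replicate 2 to anti-CD73 replicate 3. The sample descriptions number some libraries otherwise, and pairing by those numbers was not examined. With 3 libraries per group and between 1 and 16 reads for Gpc3 and Gpc4, depth limits what can be said of these glypicans.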
